A study of Mus musculus with 16 samples.

Results

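Muribaculaceae are a family of Bacteroidales and among the most common bacteria of the mouse gut. They break down complex carbohydrates, from plant fibre and from the glycans of host mucus, and ferment them to short-chain fatty acids. Most of them are known only from sequence, and Muribaculum is one of the few genera with cultured members. Here the family was followed as amplicon sequence variants (ASVs), the distinct 16S rRNA gene sequences that a sequencing run resolves. All ASVs whose deposited taxonomy places them in the family were taken, 197 of the 1901 ASVs in the table. They held 20.9% of all counts. The genus field named Muribaculum for 7 members and repeated the family name for the other 190, so nearly all members are told apart only by their ASV number.

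The 16 mice formed 4 groups of 4, all on the C57BL/6J background and 8 to 10 weeks old, in a pathogen-free facility. The wild-type group (WT) and the group that lacks Mertk (MERTK-KO) drank sterile water for 7 days, and the 2 other groups (WT+DSS and MERTK-KO+DSS) drank 2.5% (weight per volume) dextran sulfate sodium over the same time. Distal colon was taken from all 4 groups on day 8. Macrophages use the receptor tyrosine kinase Mertk to engulf dying cells. DSS, a sulfated polysaccharide, damages the colonic epithelium. The Mertk deletion is of the whole animal as far as the labels state it, and 16S counts cannot check it. No cage or litter is given, so genotype and cage cannot be told apart, and neither can treatment and cage. Each library is labelled as an individual mouse and held 96469 counts. At that depth a member without counts may still hold up to 0.00311% (3 counts), a limit for counting error only. Because shares add up to a whole, any taxon that grows pushes the other shares down.

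The family made up a smaller part of the community on DSS than on water in both genotypes. Its share was 26.3%, 24.3%, 30.7% and 27.2% in the 4 WT mice and 20.1%, 20.2%, 12.0% and 19.1% in the WT+DSS mice. It was 25.1%, 21.0%, 27.9% and 24.1% in the MERTK-KO mice and 12.4%, 14.9%, 12.2% and 17.5% in the MERTK-KO+DSS mice. In both genotypes every DSS mouse lay below every water mouse, and WT+DSS mouse 3 stood below its 3 group mates. The means fell from 27.1% ± 2.65 (SD, n = 4) to 17.9% ± 3.91 in WT, 1.52-fold (log2 −0.60 ± 0.17 SE, adjusted p = 0.00954), and from 24.5% ± 2.86 to 14.3% ± 2.48 in MERTK-KO, 1.72-fold (log2 −0.78 ± 0.17 SE, adjusted p = 0.000893), in edgeR's quasi-likelihood test with Benjamini-Hochberg adjustment over 56 families. The WT fall did not pass on centred log-ratios (log2 −0.49, adjusted p = 0.230, with a pseudocount of 0.5). Of the 56 families 28.6% passed in WT and 42.9% in MERTK-KO.

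The 2 DSS responses of the family share did not differ detectably (interaction log2 −0.18 ± 0.24 SE, adjusted p = 0.869 in edgeR's test, where 12.5% of families passed), although on centred log-ratios the MERTK-KO response was lower (log2 −1.34, adjusted p = 0.0299). The genotypes did not differ detectably on water (log2 −0.14 ± 0.17 SE, adjusted p = 0.581, where 35.7% of families passed) or on DSS (log2 −0.32 ± 0.17 SE, adjusted p = 0.151, where 23.2% passed) in edgeR's test. The sign of both genotype differences depends on the scale. By share of counts the median family was at log2 −0.70 in MERTK-KO against WT and at −0.23 on DSS. With median-ratio size factors the family was higher in MERTK-KO than in WT (log2 0.50, adjusted p = 0.0270), and on centred log-ratios as well (log2 1.44, adjusted p = 0.00121), while by share of counts it was lower. Without WT+DSS mouse 3 the difference on DSS passed by share (log2 −0.47, adjusted p = 0.0316).

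Within its phylum the family gave way to others. Bacteroidota held 40.3% ± 4.13, 40.7% ± 1.83, 40.9% ± 2.70 and 41.2% ± 6.00 of counts in WT, WT+DSS, MERTK-KO and MERTK-KO+DSS (SD, n = 4 each). Muribaculaceae were 67.4% ± 3.54 of the Bacteroidota counts in WT and 43.7% ± 8.66 in WT+DSS. They were 60.0% ± 6.22 in MERTK-KO and 34.6% ± 1.83 in MERTK-KO+DSS. The phylum's share thus stayed near the same level in all groups while the family's part of it was smaller on DSS in both genotypes.

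**Figure D1:**
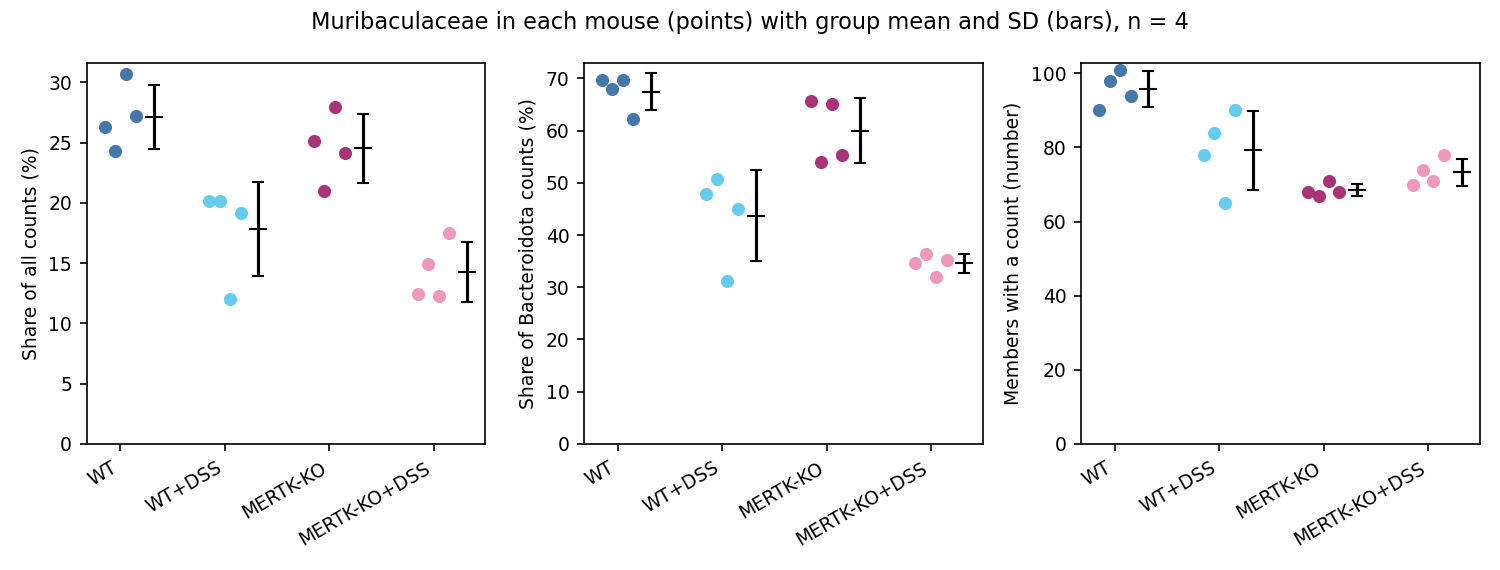
Muribaculaceae in each of 16 mice, as a share of all counts (left, %), as a share of Bacteroidota counts (middle, %) and as the number of members with at least 1 count (right). Points are mice, bars are the group mean and SD (n = 4), and both shares are lower in every DSS mouse than in every water mouse of the same genotype, with WT+DSS mouse 3 lowest at 12.0% of all counts.

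Of the other families of Bacteroidales, 4 rose on DSS in 1 genotype and did not pass in the other. Bacteroidaceae, which include the generalist glycan degraders of the genus Bacteroides, rose in WT from 2.30% ± 0.623 to 6.22% ± 3.45 (adjusted p = 0.0107, edgeR), and Rikenellaceae rose from 2.83% ± 0.847 to 5.34% ± 0.851 (adjusted p = 0.00905, edgeR). Bacteroidaceae held 11.4% in WT+DSS mouse 3 and 4.10%, 4.47% and 4.96% in the others, and their rise of 2.70-fold was 1.96-fold without mouse 3. In MERTK-KO, Bacteroidaceae were at 2.42% ± 0.933 on water and 2.80% ± 1.19 on DSS (adjusted p = 0.780, edgeR), and Rikenellaceae at 11.4% ± 2.35 and 9.49% ± 1.33 (log2 −0.27, adjusted p = 0.471, edgeR). In MERTK-KO, Prevotellaceae rose from 1.10% ± 0.567 to 11.0% ± 2.43 (adjusted p = 7.59e-07, edgeR) and Marinifilaceae from 0.574% ± 0.611 to 2.46% ± 1.22 (adjusted p = 0.00641, edgeR). Marinifilaceae held 1.47% in MERTK-KO mouse 4 and 0.208%, 0.166% and 0.451% in the others on water, and their rise of 4.28-fold was 8.94-fold without mouse 4. In WT, Prevotellaceae were at 4.65% ± 1.14 on water and 5.85% ± 2.56 on DSS (adjusted p = 0.508, edgeR), and Marinifilaceae at 2.09% ± 0.587 and 3.77% ± 1.77 (adjusted p = 0.302, edgeR). The interaction passed for Prevotellaceae (adjusted p = 0.000274, edgeR) and Rikenellaceae (adjusted p = 0.0340, edgeR) and not for Bacteroidaceae (0.227) or Marinifilaceae (0.386). Tannerellaceae passed in none of the 5 comparisons, and no ASV was named Barnesiellaceae.

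Fewer members had counts in MERTK-KO than in WT mice on water. There 90, 98, 101 and 94 members had a count in the WT mice and 68, 67, 71 and 68 in the MERTK-KO mice. On DSS there were 78, 84, 65 and 90 in WT mice and 70, 74, 71 and 78 in MERTK-KO mice. The water groups did not overlap, and the DSS groups did. The numbers of all ASVs with a count are not given here, so the lower number in MERTK-KO is not shown to be particular to the family. Of the 197 members 12 were found in all 16 mice, 145 in 8 or fewer and 40 in 1 mouse only. Testing required a total of 10 counts or more and presence in 3 libraries or more, which 146 members met. The 51 that failed it reached at most 0.0954% in any mouse.

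WT and MERTK-KO mice carried largely different members on water, so that a similar family share was made of other variants. Of 146 tested members 54 were higher and 71 lower in MERTK-KO at an adjusted p of 0.05 (edgeR's quasi-likelihood test, Benjamini-Hochberg over 1056 ASVs). Of all 1056 ASVs 20.8% were higher and 32% lower. Among the members called, 45 of the 54 higher were at 0 in all WT mice and 70 of the 71 lower were at 0 in all MERTK-KO mice. The same count over all ASVs is not given here, so these zeros are not shown to be particular to the family. The filter keeps a member that is present in 1 group only, so the members that passed it are not a fair sample of all 197. Summed over members, mean shares lost 23.5 percentage points and gained 20.9 from WT to MERTK-KO, a net difference of −2.58 points. As a description, the mean Bray-Curtis distance between family profiles (0 for identical, 1 for no shared member) was 0.875 between WT and MERTK-KO mice, against 0.190 among WT and 0.301 among MERTK-KO mice.

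ASV5, ASV23, ASV18, ASV48 and ASV22 had the highest mean shares in WT, in this order. ASV5 held 4.99%, 3.52%, 4.99% and 4.31% of counts in the WT mice and 0 in all 4 MERTK-KO mice, at least 1432-fold lower (adjusted p = 3.72e-08, edgeR). ASV18 held 2.47%, 1.67%, 2.60% and 2.36% in WT, and ASV22 held 1.94%, 1.45%, 2.01% and 1.75%. Both were at 0 in every MERTK-KO mouse on water, at least 731-fold and 575-fold lower (adjusted p = 1.00e-07 and 1.31e-07, edgeR). ASV23 reached 3.12%, 4.48%, 3.99% and 0.731% in WT and ASV48 2.41%, 0.954%, 1.98% and 2.40%, and both were at 0 in MERTK-KO (adjusted p = 0.000501 and 0.00563, edgeR). These 5 members were the largest losses between the genotypes on water.

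Other members were found in MERTK-KO and had no counts in WT on water. ASV20 held 1.57%, 1.26%, 2.52% and 1.87% in the MERTK-KO mice and 0 in all WT mice, at least 581-fold higher (adjusted p = 1.00e-07, edgeR). ASV46 held 3.36%, 1.80%, 2.33% and 0.0508% and ASV49 3.05%, 2.11%, 2.04% and 0.0518%, with 0 in WT (adjusted p = 0.00166 and 0.00163, edgeR). In both, MERTK-KO mouse 4 was far below its group mates. The same mouse had 3.05% of ASV35, against 0.847%, 1.03% and 1.10% in the others and 0 in WT. ASV35 was at least 484-fold higher with it and at least 318-fold higher without it (adjusted p = 1.04e-06 with it, edgeR).

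A smaller set of members lived in both genotypes at different levels. ASV40 was at 0.0933%, 0.191%, 0.126% and 0.111% in WT and at 1.72%, 2.30%, 2.50% and 1.48% in MERTK-KO, 15.3-fold higher (adjusted p = 0.0177, edgeR). ASV54 was 9.85-fold higher, from 0.0829% ± 0.0222 to 0.817% ± 0.263 (adjusted p = 0.000452, edgeR), and ASV117 was 9.46-fold higher (adjusted p = 0.00300, edgeR). ASV13 was at 0.605%, 0.757%, 0.702% and 0.691% in WT and at 2.85%, 2.02%, 2.69% and 1.33% in MERTK-KO, 3.22-fold higher (adjusted p = 0.0286, edgeR). The groups of these 4 members did not overlap, but the ASV13 call was lost without any 1 of 4 mice (adjusted p up to 0.0577) and with no filter (0.110). It was also lost with a replicate block, which adds the mouse number to the fit (adjusted p = 0.0528, edgeR). ASV38 was 3.21-fold lower in MERTK-KO (adjusted p = 0.0424, edgeR), a call that TMM scaling, median-ratio size factors and centred log-ratios did not keep. No filter, the replicate block and scaling within the family did not keep it either, and it was lost without any 1 of 5 mice. ASV10 did not differ detectably on water, at 0.345% ± 0.249 in WT and 0.401% ± 0.364 in MERTK-KO (adjusted p = 0.860, edgeR).

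**Figure D2:**
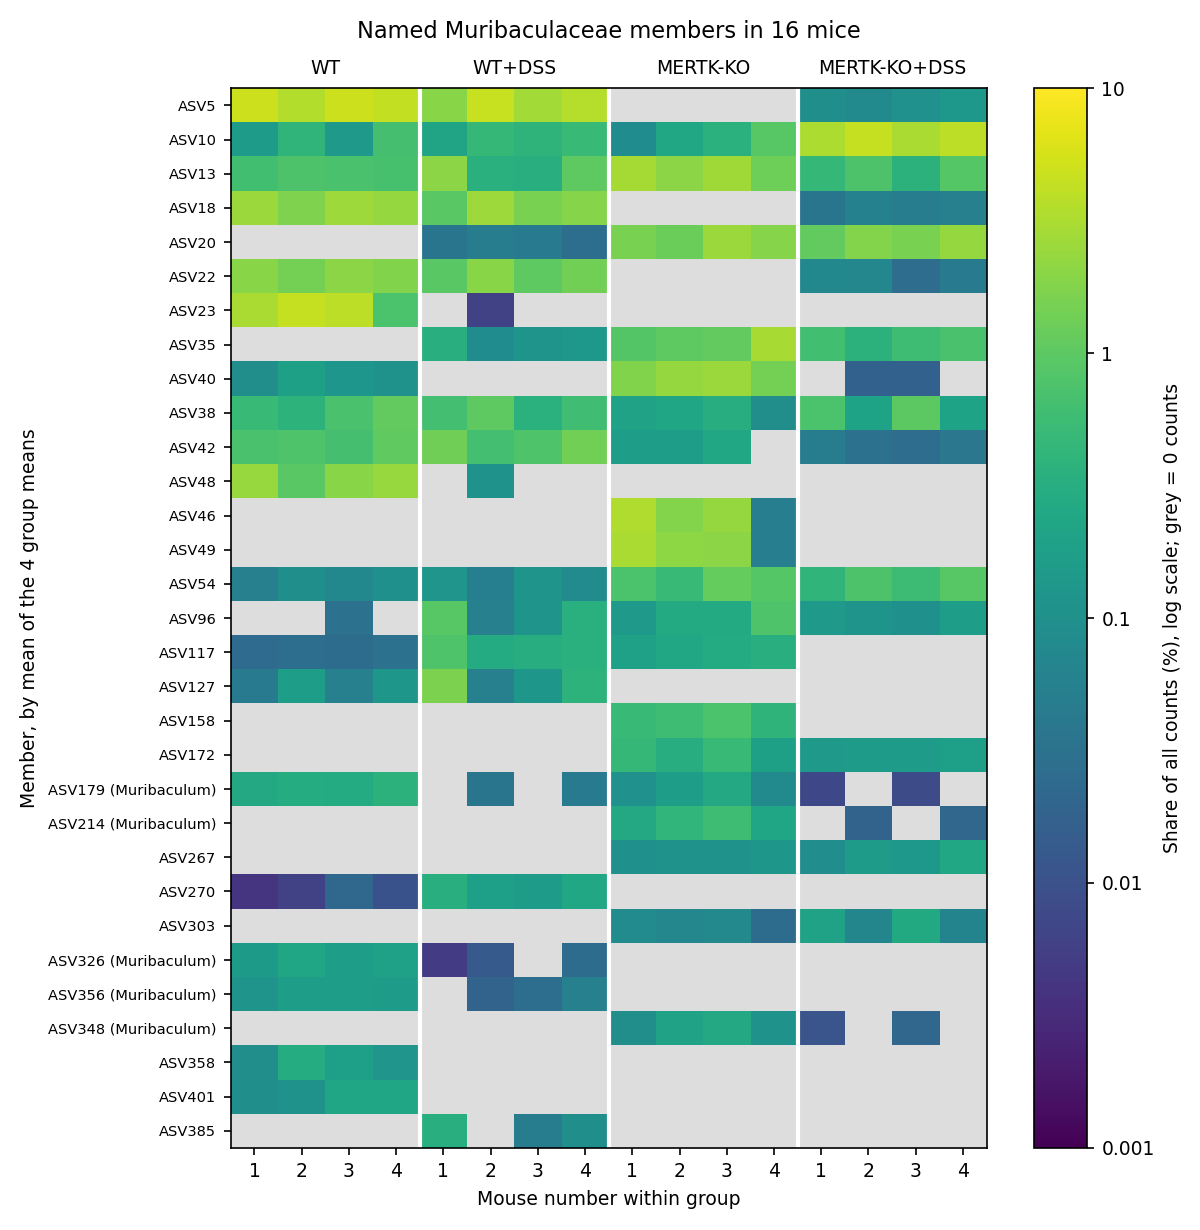
Share of all counts (%, log colour scale) of the 31 named members in each of 16 mice, ordered by the mean of their 4 group means, with grey for a count of 0. ASV5, ASV18, ASV22, ASV23 and ASV48 are grey in every MERTK-KO mouse on water, and ASV20, ASV35, ASV46 and ASV49 are grey in every WT mouse on water.

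In WT mice on DSS the largest losses of share were those of ASV23 and ASV48. ASV23, at 3.08% ± 1.66 on water, was at 0 in 3 WT+DSS mice and at 0.00622% in mouse 2 (adjusted p = 0.00334, edgeR). ASV48, at 1.94% ± 0.686 on water, was at 0 in 3 WT+DSS mice and at 0.112% in mouse 2 (log2 −6.11 ± 2.12 SE), a difference without overlap between the groups that did not pass (adjusted p = 0.0706, edgeR). They account for −3.08 and −1.91 of the net −9.26 percentage points, in which losses of 80 members summed to −13.8 and gains of 68 to 4.56. ASV5, ASV18 and ASV22 had the 3 highest means in WT+DSS. ASV5 was at 1.97%, 4.61%, 2.74% and 3.53% in the WT+DSS mice, ASV18 at 0.937%, 2.59%, 1.58% and 1.85% and ASV22 at 0.957%, 1.93%, 1.01% and 1.41%. Their ranges overlapped those on water and none passed (adjusted p = 0.534, 0.710 and 0.689, edgeR).

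Across the family 16 of 146 tested members were higher and 16 lower in WT+DSS than in WT (edgeR, adjusted p of 0.05), against 7.86% and 9% of all ASVs, and DESeq2 called 22 higher and 9 lower. On centred log-ratios 24 were higher and 34 lower with a pseudocount of 0.5, and 24 and 35 with 1. Of the 16 higher, 7 had a mean below 5% of that in MERTK-KO+DSS mice, and with such traces set to 0 there were 8 higher and 16 lower. Of the 16 lower, 13 were at 0 in every WT+DSS mouse. They include ASV358, at 0.172% ± 0.0899 on water, ASV401, at 0.162% ± 0.0681, and ASV40, at 0.130% ± 0.0425 (adjusted p = 0.00949, 0.00974 and 0.00195, edgeR). All 4 mice on water carried each of these 3 members and no WT+DSS mouse did.

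Among the members that rose in WT, ASV117 went from 0.0249%, 0.0280%, 0.0259% and 0.0321% to 0.788%, 0.291%, 0.316% and 0.349%, 15.7-fold (adjusted p = 0.00321, edgeR). ASV270 went from 0.00415%, 0.00622%, 0.0218% and 0.0104% to 0.320%, 0.180%, 0.155% and 0.254%, 21.4-fold (adjusted p = 0.0242, edgeR) and 32.9-fold without WT mouse 3. The ASV270 call was lost with no filter (adjusted p = 0.0721, edgeR) and with the replicate block (adjusted p = 0.0868, edgeR). ASV96 had a count in 1 WT mouse on water, at 0.0321% in mouse 3, and was at 0.918%, 0.0549%, 0.116% and 0.349% in the WT+DSS mice. It was 44.8-fold higher with all mice (adjusted p = 0.0327, edgeR) and 21.6-fold without WT+DSS mouse 1. Without WT mouse 3 it was at least 116-fold higher. ASV385 was at 0 on water and at 0.336%, 0, 0.0477% and 0.0995% in the WT+DSS mice, a rise of at least 38.8-fold (adjusted p = 0.0476, edgeR) and at least 15.8-fold without WT+DSS mouse 1. The calls of ASV96 and ASV385 were each lost without any 1 of 4 mice, with adjusted p up to 0.0818 and 0.0801. Both were also lost with the replicate block (adjusted p = 0.0551 and 0.0747, edgeR). The ASV96 call was lost with only the compared groups (0.0751), and the ASV385 call with traces set to 0 (0.0616). WT+DSS mouse 1 was the highest in these 4 members, and ASV127 showed the same mouse at 1.61% against 0.0560% to 0.383% in the others, without passing (adjusted p = 0.166, edgeR).

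In MERTK-KO mice on DSS the same member was the most abundant of the family in every mouse. ASV10 was at 0.0881%, 0.237%, 0.356% and 0.922% on water and at 3.24%, 4.46%, 3.06% and 3.99% on DSS, 9.21-fold higher (log2 3.20 ± 0.71 SE, adjusted p = 0.00833, edgeR) and 16.2-fold without MERTK-KO mouse 4. All DSS mice lay above all water mice. ASV10 was this member, with 22.8% to 29.9% of the family's counts in the MERTK-KO+DSS mice. For comparison, ASV5 held 9.80% to 22.9% of the family's counts in the WT+DSS mice. In WT mice ASV10 was at 0.345% ± 0.249 on water and 0.394% (0.219% to 0.497%) on DSS, and its interaction did not pass (log2 3.01 ± 0.95 SE, adjusted p = 0.0750, edgeR). On DSS it was 9.37-fold higher in MERTK-KO than in WT (adjusted p = 0.00459, edgeR).

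Against this gain of 3.29 percentage points stood the loss of the leading MERTK-KO members. ASV46 and ASV49 were at 0 in all 4 MERTK-KO+DSS mice, at least 606-fold and 583-fold lower than on water (adjusted p = 0.00555 and 0.00543, edgeR). ASV40 was at 0, 0.0176%, 0.0176% and 0, 227-fold lower (adjusted p = 0.00343, edgeR). ASV158 was at 0.511%, 0.573%, 0.733% and 0.401% on water and at 0 in all DSS mice, at least 178-fold lower (adjusted p = 0.00193, edgeR). ASV13 was at 0.459%, 0.760%, 0.366% and 0.868%, 3.62-fold lower with no overlap, at the edge of the threshold (log2 −1.86, adjusted p = 0.0494, edgeR, and up to 0.115 with 1 mouse left out). The ASV13 call was also lost with TMM, median-ratio size factors, DESeq2, no filter, the replicate block, traces set to 0 and scaling within the family. Its adjusted p reached 0.172 (edgeR, no filter), and scaling within the family moved the difference to log2 −1.11. Losses of 54 members summed to −16.2 points and gains of 52 to 5.96, a net of −10.3. ASV20, ASV54 and ASV267 did not change detectably, with mean shares of 1.69%, 0.661% and 0.159% on DSS and 1.81%, 0.817% and 0.115% on water (adjusted p = 1.00, 0.958 and 0.980, edgeR).

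Of 146 tested members 10 were higher and 13 lower in MERTK-KO+DSS than in MERTK-KO (edgeR, adjusted p of 0.05), against 7.2% and 6.16% of all ASVs. The split depended on the scale, with 14 higher and 7 lower with median-ratio size factors, 17 and 13 with DESeq2, 17 and 7 when counts were scaled to the family's own total, and 18 and 26 or 17 and 27 on centred log-ratios (pseudocounts of 0.5 and 1). Of the 10 higher, 9 were at 0 in all MERTK-KO mice on water and 7 had a mean below 5% of that in WT+DSS mice. With such traces set to 0, 2 members were called higher and 10 lower.

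**Figure D3:**
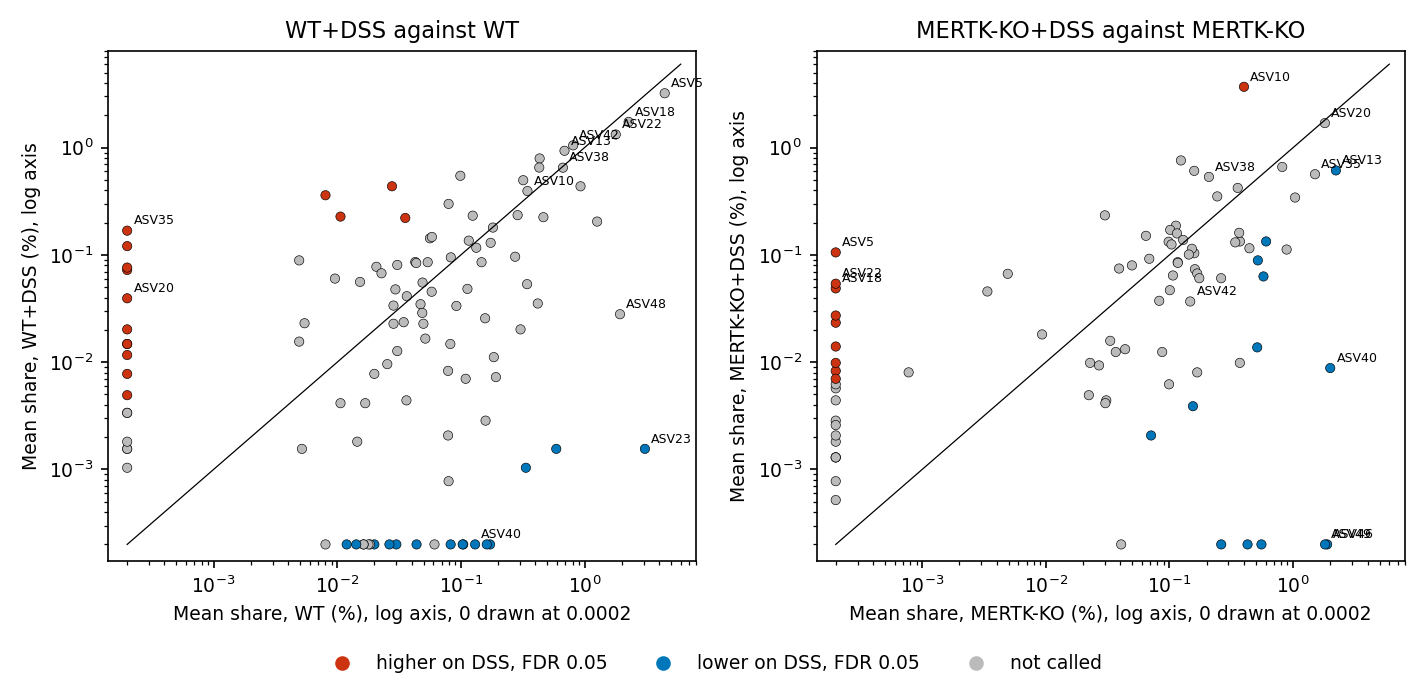
Mean share of all counts (%, log axes, n = 4 mice per group) of each tested member on water (horizontal) and on DSS (vertical) in WT (left) and MERTK-KO (right), with a mean of 0 drawn at 0.0002 and the line of equal share. Red members were higher and blue members lower on DSS at an adjusted p of 0.05 in edgeR's test, and ASV10 at 3.69% stands far above the line in MERTK-KO, while ASV46 and ASV49 lie at 0 on DSS.

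The genus Muribaculum was lower on DSS in both genotypes. Its 7 members together held 0.768% ± 0.142 in WT and 0.0653% ± 0.0643 in WT+DSS, and 0.694% ± 0.314 in MERTK-KO and 0.0218% ± 0.00494 in MERTK-KO+DSS. No DSS mouse overlapped a water mouse of its genotype. Of the 5 named members 2 were found in WT only and 2 in MERTK-KO only. ASV326 and ASV356 were found in WT only, at 0.185% ± 0.0341 and 0.157% ± 0.0282 on water, and ASV214 and ASV348 in MERTK-KO only, at 0.371% ± 0.158 and 0.168% ± 0.0768.

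ASV179 was the 1 named Muribaculum member present in both genotypes. It was at 0.257%, 0.300%, 0.286% and 0.372% in WT, at 0, 0.0363%, 0 and 0.0446% in WT+DSS, at 0.106%, 0.168%, 0.263% and 0.0829% in MERTK-KO and at 0.00726%, 0, 0.00829% and 0 in MERTK-KO+DSS. In MERTK-KO it fell by 5.27 ± 1.68 SE on the log2 scale (adjusted p = 0.0477, edgeR). No fold of shares is given for ASV179, because its MERTK-KO+DSS mean of 0.00389% drops below 3 counts per library without mouse 1 or mouse 3. The call was lost without any 1 of 13 mice (adjusted p up to 0.0960) and with TMM, median-ratio size factors, traces set to 0 and scaling within the family (adjusted p = 0.0575 to 0.0809, edgeR). It was also lost with the replicate block (adjusted p = 0.0833, edgeR). The lower level of ASV179 in WT+DSS did not pass (adjusted p = 0.0896, edgeR). The DSS differences of ASV326 and ASV356 in WT (adjusted p = 0.0706 and 0.226, edgeR) and of ASV214 and ASV348 in MERTK-KO (adjusted p = 0.0632 and 0.114, edgeR) did not pass either, though in each the water and DSS groups did not overlap. On DSS the genotype calls of these 4 members rest on few counts, with bounds of at least 2.58-fold to at least 8.25-fold, and those of ASV214 and ASV348 were each lost without any 1 of 6 mice (adjusted p up to 0.0599 and 0.0709). They were at least 2.00-fold for ASV214 without MERTK-KO+DSS mouse 4, at least 1.22-fold for ASV348 without MERTK-KO+DSS mouse 3, and at least 2.00-fold for ASV326 and at least 5.00-fold for ASV356 without WT+DSS mouse 4. The replicate block did not keep the calls of ASV326, ASV214 and ASV348 (adjusted p = 0.0518, 0.0779 and 0.109, edgeR). Centred log-ratios did not keep those of ASV214 and ASV348.

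On DSS the genotypes still differed member by member. Of 146 tested members 41 were higher and 49 lower in MERTK-KO+DSS than in WT+DSS (edgeR, adjusted p of 0.05), against 19% and 18.7% of all ASVs. ASV5 was 30.5-fold lower, at 0.0974%, 0.0809%, 0.106% and 0.138% in the MERTK-KO+DSS mice (adjusted p = 9.06e-05, edgeR), and ASV20 was 43.0-fold higher, at 0.0352%, 0.0498%, 0.0446% and 0.0280% in the WT+DSS mice (adjusted p = 9.44e-05, edgeR). ASV42 was 28.5-fold lower, at 1.05% ± 0.385 in WT+DSS and 0.0368% ± 0.00982 in MERTK-KO+DSS (adjusted p = 0.00601, edgeR). ASV127 was at 0 in all MERTK-KO mice and at least 176-fold lower on DSS (adjusted p = 0.00135, edgeR), and at least 61.2-fold lower without WT+DSS mouse 1. ASV172, ASV267 and ASV303 were at 0 in every WT mouse, with or without DSS, and at 0.161% ± 0.0142, 0.159% ± 0.0652 and 0.151% ± 0.102 in MERTK-KO+DSS (adjusted p = 0.000266, 0.000427 and 0.000999, edgeR).

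Sorting members by the water mice describes how far each genotype kept its own set on DSS. A member counted as detected in a group with counts in at least 3 of 4 mice and as absent with 0 in all 4. By this, 70 members were detected in WT and absent in MERTK-KO, 46 the reverse, 21 were detected in both, 32 were absent in both and 28 fitted none of these. All ASVs were not sorted in this way here, so the split is not shown to be particular to the family. The 70 WT members held 79.4% ± 3.54 of the family's counts in WT and 64.5% ± 9.56 in WT+DSS, but 2.25% ± 0.196 in MERTK-KO+DSS. The 46 MERTK-KO members held 52.4% ± 6.42 in MERTK-KO and 48.4% ± 2.77 in MERTK-KO+DSS, but 2.05% ± 0.636 in WT+DSS. The 21 shared members held 20.1% ± 3.48, 29.2% ± 5.68, 45.9% ± 5.21 and 47.8% ± 2.99 in WT, WT+DSS, MERTK-KO and MERTK-KO+DSS. On DSS, 16 of the 70 WT members were at 0 in all WT+DSS mice, and 4 of the 46 in all MERTK-KO+DSS mice.

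**Figure D4:**
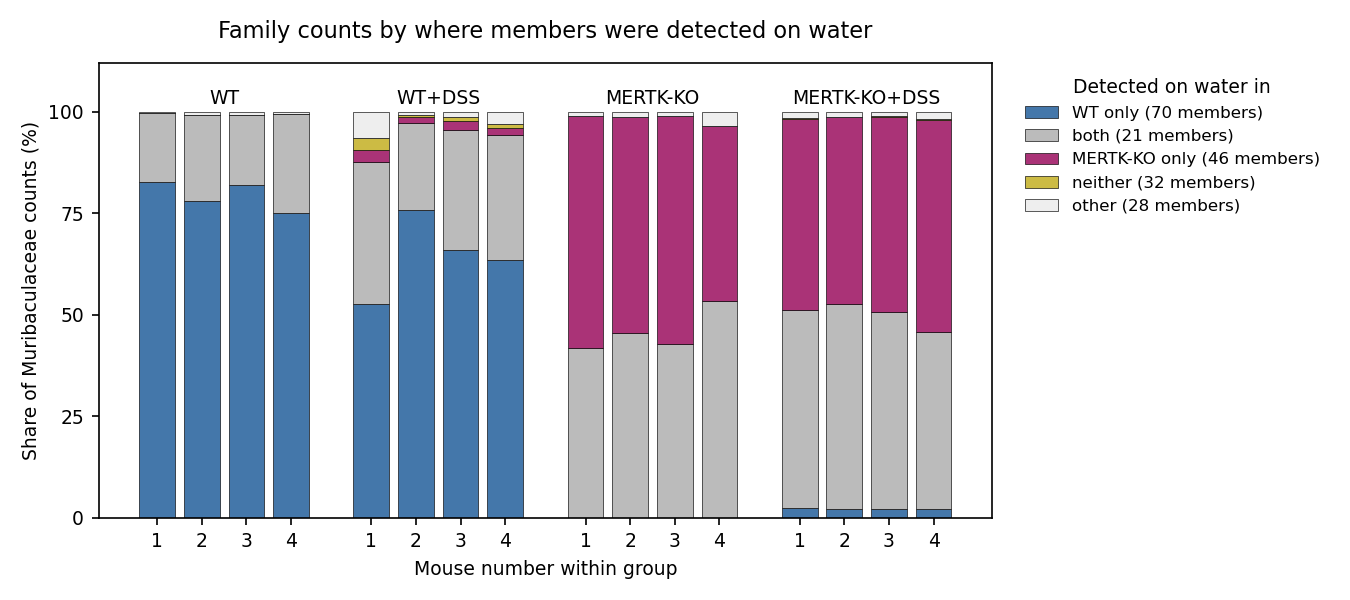
Share of Muribaculaceae counts (%) in each of 16 mice held by members detected on water in WT only, in both genotypes, in MERTK-KO only, in neither, or in none of these patterns. The classes were set on the 8 water mice, so the bars of WT and MERTK-KO follow from the rule, and on DSS the other genotype's members appear at 2.25% (MERTK-KO+DSS) and 2.05% (WT+DSS) of the family on average.

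The counts of the other genotype's members on DSS were mostly low. Of 16 members that were at 0 in all MERTK-KO water mice and had a mean of at least 100 counts in WT+DSS, 12 had counts in MERTK-KO+DSS, at a median of 3.11% of their WT+DSS mean (1.00% to 6.03%). Of 17 such members in the other direction, 9 had counts in WT+DSS, at a median of 2.66% (1.36% to 29.8%). ASV35 gave the highest value of these 17, at 0.331%, 0.0881%, 0.119% and 0.135% in WT+DSS against 0.605%, 0.373%, 0.583% and 0.700% in MERTK-KO+DSS. Members below 100 counts are left out of these medians and ranges. Among them ASV131, at 0 in all WT mice on water, was at 0.0723% in WT+DSS against 0.0889% in MERTK-KO+DSS, so its counts were not low in proportion. Low counts of the other genotype's members decide several DSS calls: ASV5 (at least 33.9-fold), ASV18 (at least 15.7-fold) and ASV22 (at least 17.3-fold) were called higher in MERTK-KO+DSS than in MERTK-KO, and ASV20 (at least 12.7-fold) in WT (adjusted p = 1.86e-06, 7.96e-06, 1.12e-05 and 2.60e-05, edgeR). Each of these 4 calls ends when the traces are set to 0, which follows from the rule because the water group is at 0 too. The source of these counts was not tested.

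Of 146 tested members 5 were called on DSS in both genotypes, whose comparisons share no mice, or 3.42%, against 3.12% of all ASVs. ASV40 and ASV215 were lower on DSS in both. ASV117, ASV131 and ASV95 were higher in WT and lower in MERTK-KO, and no member was called higher in both. Over all ASVs, members included, 33 were called in both genotypes, 29 in the same direction and 4 in opposite directions. ASV131, ASV95 and ASV215 were named after their values were seen. Among 17 members with a mean of at least 3 counts in all 4 groups, 4 had a lower mean on DSS in both genotypes, 1 a higher mean in both, 10 were higher in WT and lower in MERTK-KO, and 2 the reverse. A sign was counted whatever its size, such as log2 0.19 in WT and −0.31 in MERTK-KO for ASV54. The same count over all ASVs is not given here, so the split is not shown to be particular to the family. As a description, the log2 ratios of these 17 members had Pearson's r of 0.02 and Spearman's rho of −0.23 between the genotypes.

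The interaction, the DSS effect in MERTK-KO minus that in WT, passed for 17 of 146 tested members (edgeR, adjusted p of 0.05), against 5.59% of all ASVs. ASV117 gave the opposite response in the genotypes. It rose in WT as above, and in MERTK-KO it was at 0.192%, 0.243%, 0.288% and 0.327% on water and at 0 in all 4 DSS mice, at least 84.3-fold lower (interaction adjusted p = 9.50e-06, edgeR). ASV95 rose 6.23-fold in WT (adjusted p = 0.0400, edgeR) and 3.12-fold without WT+DSS mouse 2. Its WT groups overlapped, with 24, 35, 24 and 54 counts on water and 32, 532, 107 and 182 on DSS. In MERTK-KO it fell 9.14-fold (adjusted p = 0.0240, edgeR), and the interaction had an adjusted p of 0.00532 (edgeR). The calls of ASV95 were not followed through the alternatives. The interactions of ASV5, ASV18, ASV20 and ASV22 (adjusted p = 6.35e-06 to 2.71e-05, edgeR) rest on the trace counts described above, and none of the 4 passed with them set to 0. With traces set to 0, 8 members passed, 7 of them among the 17. The interaction of ASV35 (adjusted p = 2.60e-05, edgeR) passed in each alternative in which it was tested, and its WT response starts from 0 in all water mice. The trace rule did not change the counts of ASV35 or ASV117.

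Some pairs of members varied less in their proportion to each other than most pairs, in the mice that held both. Ratios were taken over mice in which both members had at least 20 counts. Among 558 pairs of the 45 most abundant members with at least 6 such mice, 17 had an SD of the log2 ratio of counts below 0.5, against a median SD of 1.77. ASV18 stood at 0.508 times ASV5 (range 0.362 to 0.705) in 12 mice and ASV22 at 0.405 times ASV5 (0.255 to 0.872) in the same 12, and all 3 were at 0 in the 4 MERTK-KO mice on water. Both ends of the ASV22 range came from MERTK-KO+DSS mice, with 70, 68, 26 and 44 counts of ASV22 against 94, 78, 102 and 133 of ASV5. Other pairs held their ratio in some groups only. ASV155 stood at 0.199 times ASV13 in the 8 MERTK-KO and MERTK-KO+DSS mice (0.150 to 0.221), but it was at 0 in all 8 WT and WT+DSS mice, where ASV13 had 311 to 1955 counts. ASV109 stood at 0.222 times ASV20 in 8 mice (0.161 to 0.282), and in the WT+DSS mice it had 0, 12, 0 and 18 counts where ASV20 had 34, 48, 43 and 27. ASV81 stood at 1.31 times ASV69 in 9 mice (1.13 to 1.52), but it was at 0 in all 4 MERTK-KO mice, where ASV69 had 524, 682, 753 and 19 counts. ASV46 and ASV49 also had similar shares in each of the 4 MERTK-KO mice.

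**Figure D5:**
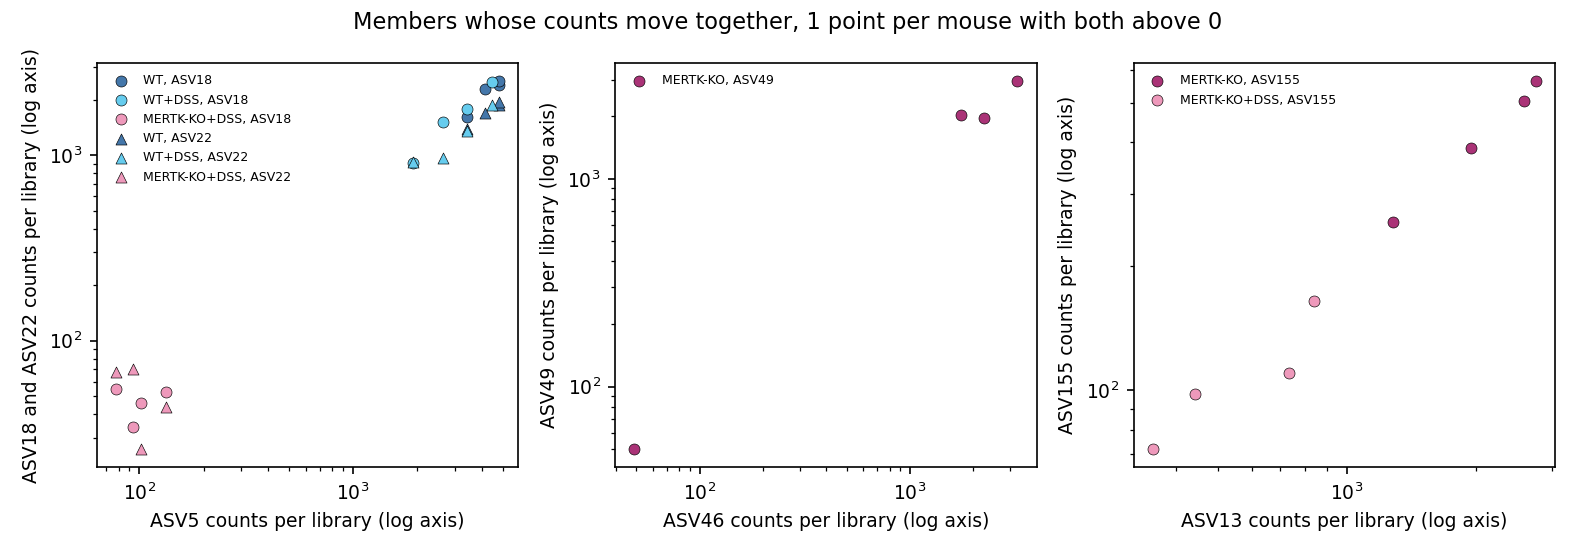
Counts per library (log axes, of 96469) of ASV18 and ASV22 against ASV5, of ASV49 against ASV46 and of ASV155 against ASV13, with 1 point per mouse in which both had counts. Higher counts of one member go with higher counts of the other in the middle and right panels, ASV22 scatters at the low counts of the MERTK-KO+DSS mice in the left panel, and MERTK-KO mouse 4 is the low point for ASV46 and ASV49.

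The evenness of the family is described by its effective number of members. This number, the exponential of the Shannon index of the family's counts, was 27.9 ± 3.85 in WT, 24.7 ± 4.65 in WT+DSS, 29.1 ± 2.10 in MERTK-KO and 21.9 ± 1.82 in MERTK-KO+DSS. The most abundant member held 17.4% ± 1.54, 18.5% ± 6.02, 11.6% ± 1.69 and 26.0% ± 2.97 of the family's counts in the same order. MERTK-KO+DSS mice also had the most alike family profiles on average, with a mean Bray-Curtis distance of 0.146 among them (0.122 to 0.166). The mean was 0.190 among WT mice (0.118 to 0.245), 0.301 among MERTK-KO mice and 0.311 among WT+DSS mice, so the ranges of WT and MERTK-KO+DSS overlapped.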

How the data were processed

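Both deposited tables hold the same whole-number counts of 16S sequences per ASV and mouse, 1 of them with a taxonomic name per ASV. The authors had brought the deposited counts to 96469 per library, probably by subsampling, and the sources used here name no earlier depth, amplicon region, ASV caller or taxonomy database. Per the labels' protocols rinsed colon tissue gave RNA for an mRNA library, and per the submitters' processing notes GRCm38 and mm10, both mouse builds, were used. Neither fits 16S counts, so the series' design text was followed, and the template (DNA or RNA) is unknown. The labels do not say that the same mouse number in 2 groups pairs mice, and the main fit used no pairing.

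Counts were tested with edgeR 4.0.16 (glmQLFit robust=TRUE, glmQLFTest, R 4.3.3) on the whole ASV table and on sums per family, with the library total as scaling, a mean per group over all 16 libraries, a filter of 10 counts in all and counts in 3 libraries, and an adjusted p of 0.05 (Benjamini-Hochberg over 1056 ASVs or 56 families). The code was tested on simulated data. Folds are ratios of mean shares. Where a group was at 0 the fold is a lower bound, set with 3 counts in each of its libraries. A mean above 0 but under 3 counts gives no fold. Shannon, distances and classes are descriptions with no test. Members and lists were chosen with earlier results of these data known, and so was the alternative that sets an ASV to 0 in a DSS group whose mean is below 5% of the other's. Named members are the 15 most abundant, in each comparison the 3 strongest calls up and the 3 down (a group mean of 0.1% or more), the 5 lowest interaction p-values, Muribaculum members with at least 0.1% and the top member per group. ASV131, ASV95, ASV215 and the members of the pairs with less variable proportions were added later. Tried in place of these were TMM and median-ratio (positive counts) scaling, DESeq2 1.42.0, centred log-ratios in limma 3.58.1 (pseudocount 0.5 or 1), no filter, a filter of 6 libraries, only the compared groups, scaling to the family's own total, a replicate block and each mouse left out. Python 3.11.15 with numpy 2.4.6, pandas 2.3.3, scipy 1.17.1 and matplotlib 3.10.9 served for tables and figures.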

Additional observations from a re-analysis of the deposited data

Results flagged for a closer look

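In 6 of 101 groups of 4 values tested, a single mouse stood apart from the other 3 in Dixon's outlier test. Its nominal rate of 1 in 20 does not hold for shares with many zeros. A group with counts in 1 mouse only is always flagged, as for ASV23 and ASV48 in WT+DSS and ASV96 in WT. The family share of WT+DSS mouse 3 was the lowest, at 12%. WT+DSS mouse 2 was the highest for ASV23, at 0.00622%, and for ASV48, at 0.112%, the only WT+DSS mouse with either. MERTK-KO mouse 4 had 3.05% of ASV35, WT mouse 3 had 0.0321% of ASV96 and WT+DSS mouse 1 had 0.788% of ASV117.

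The DSS effect differed between genotypes for 6 named members in edgeR's interaction test, with adjusted p of 6.35e-06 for ASV5, 2.28e-05 for ASV18, 2.71e-05 for ASV20, 2.60e-05 for ASV22, 2.60e-05 for ASV35 and 9.50e-06 for ASV117. ASV117 and ASV35 passed under all 10 alternatives run on them. The other 4 did not pass once trace counts in the DSS groups were set to 0. That contrast is fixed by the trace rule, which left the counts of ASV117 and ASV35 unchanged. In the other 4 it emptied a DSS group whose water group was already at 0.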

How the results depend on the processing

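The fall of the family share on DSS kept its direction in both genotypes under all alternatives that gave a value, and it did not pass in WT on centred log-ratios (log2 −0.49 and −0.55 with pseudocounts of 0.5 and 1, adjusted p = 0.230 and 0.174). For MERTK-KO against WT the sign turned to log2 0.062 with TMM, 0.50 with median-ratio size factors, 0.50 with DESeq2 and 1.44 and 1.27 on centred log-ratios. On DSS it turned to 0.11 with TMM, 0.14 with median-ratio size factors and with DESeq2, and 0.11 and 0.076 on centred log-ratios, and with each mouse left out it ranged from −0.47 to −0.26. The family interaction was 0.049 with TMM and −1.34 and −1.19 on centred log-ratios. Members called in WT on DSS numbered 58 and 59 on centred log-ratios, 18 with a filter of 6 libraries, where fewer members were tested, and 15 with the replicate block. In MERTK-KO they were 44 and 44 on centred log-ratios and 12 with traces set to 0. Interactions called were 34 with DESeq2, 68 and 70 on centred log-ratios and 8 with traces set to 0. The causes of these changes were not tested. The 24 same-numbered pairs of mice from different groups had correlations from −0.09 to 0.07. The same number was the best match in 6 of the 24, among them every pair of WT+DSS with MERTK-KO. These correlations do not settle whether same-numbered mice shared a cage, which the labels do not give. With the replicate block members called were also 19, 102, 61 and 17 in the other 4 comparisons, in the order MERTK-KO on DSS, genotype on water, genotype on DSS and interaction. Of 75 calls of named members, 53 were kept under every alternative and with each mouse left out. Scaling within the family gives no family share, and fitting only the compared groups no interaction. Calls of members near 3 counts per library are limited by depth.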
